A study of Mus musculus with 18 samples.

Results

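DNA transposon loci are the annotated copies of cut-and-paste elements in the mouse genome, and their RNA was measured here in mesenchymal progenitor cells with and without a working *Atrx* gene. They were taken from the table of rRNA-depleted libraries, in which each transposable element (TE) or repeat locus carries a name, a subfamily, a family and a class, by keeping every locus of class DNA. This gave 163077 of 3725827 TE and repeat loci, or 4.38%, in 13 families and 197 subfamilies. A further 1027 loci of the uncertain class DNA? were left out. The cells were C3H/10T1/2, a mouse line of mesenchymal progenitors, in 3 lines kept under growth conditions. *Atrx* WT received the Cas9 and GFP plasmid without a sgRNA, and sg5 and sg6 are *Atrx* KO lines made with 2 different sgRNAs against *Atrx* by transient transfection and sorting of GFP-positive single cells. The KO lines are 1 clone each (G7 for sg5 and B10 for sg6), every line has 3 rRNA-depleted and 3 polyA libraries, and nothing in the sources used here says that the libraries of a line came from separate cultures, so that the p-values below measure only the spread between these libraries.

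DNA transposons encode a transposase that cuts the element out at its terminal inverted repeats and pastes it elsewhere, unlike LINEs, SINEs and LTR elements, which copy themselves through RNA. The copies in the mouse genome are old and mostly short, belong chiefly to the hAT group (Charlie, Tip100, Blackjack) and the Tc1/Mariner group (Tigger, Mariner, Tc2), and none is known to move in the mouse today. Many lie within genes, so RNA at a locus can be part of a longer transcript that starts elsewhere. Several cellular genes descend from transposases, among them *Cenpb*, a centromere protein gene, and *Pogk*, a KRAB-domain gene with a pogo-type transposase region. The loci carry no coordinates in the table, and their positions, host genes and sequences were not analysed here.

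hAT-Charlie was the largest family, with 105698 loci or 64.8% of the DNA class, followed by TcMar-Tigger with 35118 loci or 21.5% and hAT-Tip100 with 9436 loci or 5.79%. Most copies were not detected at this depth. Of the 163077 loci, 43082 (26.4%) had at least 1 count in the 9 libraries together, and 25715 of those had fewer than 10. Only 23 loci reached 1000 counts. The class held 912722 counts in all, of which hAT-Charlie took 65.7%, TcMar-Tigger 20.8% and hAT-Tip100 7.94%, and the 1000 loci with the most counts took 35.7%. TcMar-Pogo, with 21 loci listed, had 1 count in total.

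A single copy stood above all others in counts, which are not corrected for length. FordPrefect_dup264, a hAT-Tip100 locus, had 50876 counts, which is 5.57% of the counts of the DNA class and 70.2% of those of its family. It had 4458, 6967 and 7363 counts in WT, 4327, 6287 and 6628 in sg5 and 3057, 6398 and 5391 in sg6. The ranges of the 3 lines overlapped. MER5B_dup2537 followed with 589 to 1390 counts a library, then Tigger12_dup141 with 528 to 1113, URR1B_dup11226 with 244 to 739 and MER106B_dup4 with 373 to 531. The log2 fold changes of these 5 loci ran from −0.51 ± 0.20 (SE, URR1B_dup11226) to 0.36 ± 0.16 (MER106B_dup4) in sg5, and from −0.56 ± 0.17 (MER5B_dup2537) to 0.21 ± 0.16 (MER106B_dup4) in sg6. None of them passed the threshold in either clone (edgeR quasi-likelihood test, lowest adjusted p = 0.110, for MER5B_dup2537 in sg6).

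The rRNA-depleted libraries held between 20135336 and 33187136 counts and the polyA libraries between 27544833 and 235346363. *Atrx* RNA was lower in both clones, at 215 ± 20.2 CPM (counts per 1000000 counts after scaling; SD, n = 3) in WT, 82.1 ± 26.4 in sg5 and 86.6 ± 12.7 in sg6. Of the 10 mesenchymal markers read, Cd44, Pdgfra, Pdgfrb, Ly6a, Vim, Col1a1 and Col1a2 were abundant in all 9 libraries, Eng had at most 133 counts in WT and at least 239 in every KO library, Nt5e had at most 13 counts, and Thy1 had at most 16 counts in WT and sg5 but 563 to 792 in sg6. Blood, endothelial and neuronal markers and *Epcam* had at most 6 counts, and *Cdh1* had 36 to 83 in WT and at most 9 in the clones. WT replicate 3 stood apart in its TE content, with 15.5% of counts in TE and repeat loci against 11.8% and 12.3% in the other WT libraries and 10.4% to 12.1% in the clones, and values without it are given beside the results below that it moves.

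DNA transposon loci made up a small and similar part of the RNA in the 3 lines. Their share of all counts was 0.339%, 0.420% and 0.510% in the WT libraries, 0.355%, 0.346% and 0.387% in sg5, and 0.341%, 0.352% and 0.380% in sg6. The lowest and the highest of the 9 values were both WT, and the clones lay between them. The mean was 0.423% ± 0.0856 (SD, n = 3) in WT, 0.363% ± 0.0213 in sg5 and 0.357% ± 0.0202 in sg6. Neither clone differed from WT by more than the spread between libraries (exact two-sided permutation test, p = 0.4 for each clone, where 3 against 3 libraries cannot go below 0.1). The difference from WT was −0.0608 percentage points in sg5 and −0.0659 in sg6, and it became −0.0173 and −0.0224 without WT replicate 3 and −0.103 and −0.108 without WT replicate 1. Of TE and repeat counts alone, DNA loci made up 3.19% ± 0.275 in WT, 3.29% ± 0.127 in sg5 and 3.05% ± 0.119 in sg6, so that the sign of the sg5 difference depended on the denominator (exact permutation test, p = 0.7 for sg5 and 0.5 for sg6).

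**Figure D1:**
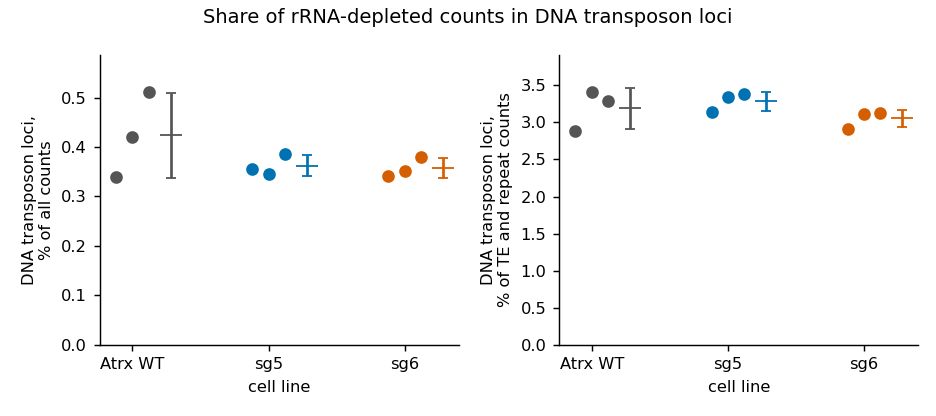
Percentage of all counts (left) and of TE and repeat counts (right) that fell in DNA transposon loci, by line. Dots are the 3 rRNA-depleted libraries of a line, and the bar beside them is their mean ± SD. The WT libraries spread from 0.339% to 0.510% of all counts, around the values of both clones.

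To ask which single copies differed between KO and WT cells, each locus was tested in a fit of all genes and loci together, in which 2295 DNA loci from 151 subfamilies had enough counts. They were 1.41% of the DNA loci listed and held 47.7% of the DNA counts, with a median of 12 counts per locus and library. The count filter asked for enough counts in at least 3 libraries, so 1 line could carry a locus into the test. A locus was called at an adjusted p below 0.05. In sg5, 20 DNA loci were higher and 21 lower than WT, which is 0.871% and 0.915% of those tested, where 1.82% of all genes and loci tested were called higher and 2.06% lower. In sg6, 15 were higher and 18 lower, or 0.654% and 0.784%, where the whole table had 1.18% and 1.72%. Among TE and repeat loci of every class the shares were 0.638% higher and 1.11% lower in sg5, and 0.439% and 0.996% in sg6. The median log2 fold change over the DNA loci tested was −0.09 in sg5 and −0.04 in sg6, beside −0.06 and −0.04 over all features. The sign of these medians was not stable: without WT replicate 3 they were 0.05 and 0.07, beside 0.01 and 0.01 over all features, and with scaling over TE rows alone 0.02 and 0.03, beside 0.05 and 0.02.

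In both clones, 8 DNA loci were higher and 10 lower than WT, or 0.349% and 0.436% of those tested, where the whole table had 0.729% higher and 1.16% lower and all TE and repeat loci 0.236% and 0.615%. Both clones were compared with the same 3 WT libraries. All 8 higher loci and 6 of the 10 lower ones were of the hAT-Charlie family, which made up 69.5% of the DNA loci tested, 3 of the lower ones were of TcMar-Tigger and 1 of hAT-Tip100. With the replicate number as a block, 13 loci were higher in both clones, 7 of them among the 8, and 12 were lower, 7 of them among the 10, and the count higher in sg5 went from 20 to 35. DESeq2 called 14 higher and 13 lower in both clones, the 18 included. The shares over all features in the block and DESeq2 fits are not given here, so these rises are not set against the whole table.

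The counts of DNA loci called changed when 1 library was left out, and the larger falls are listed here. How the share called over all features changed in the same fits is not given, so the changes are not read as particular to DNA loci. Some counts rose instead, to 26 higher in sg5 without sg6 replicate 1. In sg6, 20 were higher and 22 lower without sg5 replicate 1. The count higher in both clones was 2 without WT replicate 1, 4 without WT replicate 2, 2 without WT replicate 3, 5 without sg5 replicate 1, 5 without sg6 replicate 1 and 4 without sg6 replicate 3. The count lower in both clones was 3 without WT replicate 1, 4 without WT replicate 2, 1 without WT replicate 3, 3 without sg5 replicate 2, 2 without sg5 replicate 3, 3 without sg6 replicate 2 and 3 without sg6 replicate 3. In sg5 alone the higher loci went from 20 to 13, 10 and 13 without WT replicate 1, WT replicate 3 and sg5 replicate 2, and the lower loci from 21 to 10, 5, 3, 5, 11 and 13 without WT replicates 1, 2 and 3, sg5 replicates 2 and 3 and sg6 replicate 3. In sg6 alone the higher loci went from 15 to 4, 8, 2, 6 and 7 without WT replicates 1, 2 and 3 and sg6 replicates 1 and 3, and the lower loci from 18 to 9, 9, 3, 4 and 6 without WT replicates 1, 2 and 3 and sg6 replicates 2 and 3. Of the 18 loci, 3 passed in both clones whichever library was left out: MER45R_dup305 among the lower ones, and Charlie1b_dup232 and Charlie29a_dup312 among the higher ones. The other 15 each lost the call in at least 1 clone without WT replicate 3. Charlie1b_dup232 did not pass in both clones when only the 2 lines compared were fitted. MER45R_dup305 entered the fits through WT alone and Charlie1b_dup232 through KO libraries alone. Passing in fits without a library does not stand apart from that selection.

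**Figure D2:**
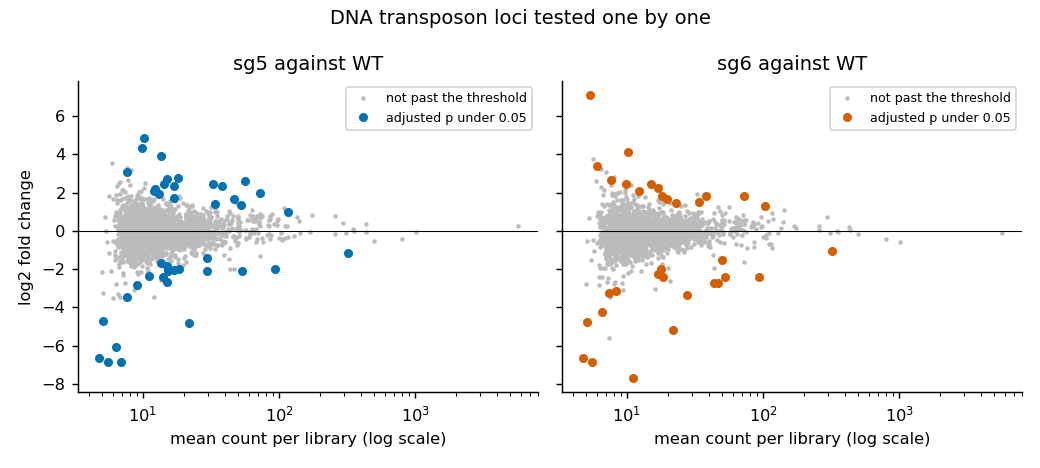
Log2 fold change of the 2295 DNA transposon loci tested, in sg5 (left) and sg6 (right) against WT, by mean count per library on a log scale. Coloured points have an adjusted p under 0.05 (41 loci in sg5 and 33 in sg6) and grey points do not. The grey cloud is centred near 0, and the 5 loci with the most counts are grey in both panels.

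Among the loci lower in both clones, MER45R_dup305, a hAT-Tip100 copy, had the lowest adjusted p. It had 43, 71 and 72 counts in the WT libraries, 2, 1 and 2 in sg5 and 0, 2 and 2 in sg6. Every WT library held at least 43 counts and no KO library more than 2, so WT alone carried it through the count filter. Its level was 2.17 ± 0.394 CPM (SD, n = 3) in WT, 0.0700 ± 0.0124 in sg5 and 0.0541 ± 0.0473 in sg6, with a log2 fold change of −4.83 ± 0.52 (SE) in sg5 and −5.19 ± 0.53 in sg6 (edgeR quasi-likelihood test, adjusted p = 1.0e-04 and 8.5e-05).

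Charlie29a_dup310 and MER5B_dup3085, both hAT-Charlie copies, were not detected in any of the 6 KO libraries. The count filter admitted both through WT alone, so their p-values do not stand apart from that selection. Charlie29a_dup310 had 12, 11 and 27 counts in WT, and against a floor of 3 counts per library its fall was at least 4.22-fold in sg5 and 4.52-fold in sg6 (edgeR, adjusted p = 0.0269 and 0.0298). MER5B_dup3085 had 10, 12 and 21 counts in WT and fell at least 3.68-fold and 3.93-fold (adjusted p = 0.0363 and 0.0406). MER5A_dup1863, of the same family, had 10, 17 and 17 counts in WT and 1 count in each clone, in sg5 replicate 2 and sg6 replicate 3. WT alone carried this locus through the filter as well. The ratio of WT to clone was 35.8 for sg5 (95% counting interval 6.09 to 1444) and 37.3 for sg6 (6.36 to 1508), with an adjusted p of 0.0396 and 0.0423. Charlie29a_dup310, MER5B_dup3085 and MER5A_dup1863 did not pass in both clones with the replicate block or in any of the 9 fits that left out a library.

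MER33_dup888, another hAT-Charlie copy that WT alone carried through the filter, had 30, 20 and 36 counts in WT. It had 6, 2 and 6 in sg5 and none in sg6. Its log2 fold change in sg5 was −2.33 ± 0.51 (adjusted p = 0.0263), and in sg6 it was at least 8.20-fold lower (adjusted p = 6.2e-04). Loci were named only where KO and WT libraries did not overlap in CPM, and at MER33_dup888 sg6 also lay below sg5. URR1B_dup5322, a copy of a rodent Charlie subfamily, had 64, 67 and 228 counts in WT, 43, 11 and 12 in sg5 and 23, 16 and 13 in sg6. WT replicate 3 and sg5 replicate 1 were the high libraries of their lines, and no KO library reached WT in CPM, as naming required. Its log2 fold change was −2.07 ± 0.49 in sg5 and −2.43 ± 0.50 in sg6 (adjusted p = 0.0302 and 0.0160), and it did not pass in sg5 or sg6, or both, in 6 of the 9 fits without a library.

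The other 4 loci lower in both clones had smaller changes and are named after their values were seen. They were Tigger10_dup72 (log2 fold change −2.05 in sg5 and −2.27 in sg6), Tigger6a_dup132 (−2.004 and −2.39), Tigger19a_dup628 (−1.98 and −2.39) and MER33_dup906 (−1.15 and −1.06). Tigger10_dup72 and Tigger19a_dup628 would not have passed the count filter without WT, so their calls do not stand apart from that selection. MER33_dup906 had the most counts of the 18, with 449, 476 and 709 in WT, 239, 186 and 158 in sg5 and 290, 171 and 192 in sg6. Its KO libraries all lay below WT, at 8.56 ± 2.20 CPM in sg5 and 9.09 ± 3.12 in sg6 against 18.98 ± 1.24 in WT (SD, n = 3; edgeR, adjusted p = 0.0205 and 0.0365).

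Among the loci higher in both clones, Charlie1b_dup232 had the largest change. It had 0, 1 and 1 counts in WT, 21, 19 and 15 in sg5 and 14, 14 and 7 in sg6. KO libraries alone carried it through the count filter. With 2 counts in WT altogether, the ratio of clone to WT was 33.8 in sg5 (95% counting interval 8.93 to 286) and 20.6 in sg6 (5.30 to 177), with an adjusted p of 9.8e-04 and 0.0052 in the edgeR test. Charlie1b_dup233, which bears the next copy number of the same subfamily, had 4, 4 and 5 counts in WT, 23, 13 and 14 in sg5 and 21, 15 and 12 in sg6, with a log2 fold change of 2.20 ± 0.46 and 2.08 ± 0.46 (adjusted p = 0.0162 and 0.0258). Both copies of Charlie1b were higher in all 6 KO libraries than in any WT library, as naming required.

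Charlie29a_dup312 was the higher locus with the most counts, at 12, 32 and 50 in WT, 69, 99 and 116 in sg5 and 80, 102 and 91 in sg6. Its level was 1.03 ± 0.452 CPM (SD, n = 3) in WT, 4.22 ± 1.45 in sg5 and 3.74 ± 0.275 in sg6. WT replicate 1 was the lowest library, and the lowest KO library lay above the highest WT library, as naming required. The log2 fold change was 1.99 ± 0.36 in sg5 and 1.83 ± 0.36 in sg6 (edgeR, adjusted p = 0.0059 and 0.0121). The same subfamily thus held a copy that was higher and, in Charlie29a_dup310, a copy that was lower.

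URR1B_dup7256, MER5B_dup3893 and MER58B_dup1846 were the other higher loci named by rule. URR1B_dup7256 had 1, 2 and 2 counts in WT, 11, 12 and 13 in sg5 and 9, 8 and 11 in sg6, with a log2 fold change of 3.08 ± 0.64 and 2.64 ± 0.65, and it passed in both clones in none of the fits without a library and not with the replicate block. MER5B_dup3893 had 2, 6 and 4 counts in WT, 36, 14 and 18 in sg5 and 22, 13 and 21 in sg6, with a log2 fold change of 2.73 ± 0.51 and 2.44 ± 0.52. MER58B_dup1846 had 14, 7 and 21 in WT, 67, 52 and 55 in sg5 and 67, 30 and 28 in sg6, with 2.37 ± 0.43 and 1.83 ± 0.44. The rule named only loci whose KO and WT libraries did not overlap in CPM, so this held for all 3 by selection. The 2 that remain, MER5B_dup2279 and URR1B_dup15749, are named after their values were seen and rose by 1.72 and 1.39 on the log2 scale in sg5 and by 2.25 and 1.52 in sg6. Of the 8 higher loci, 5 had fewer than 10 counts in every WT library. These 5 entered the test through KO libraries alone, so their p-values do not stand apart from that selection.

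**Figure D3:**
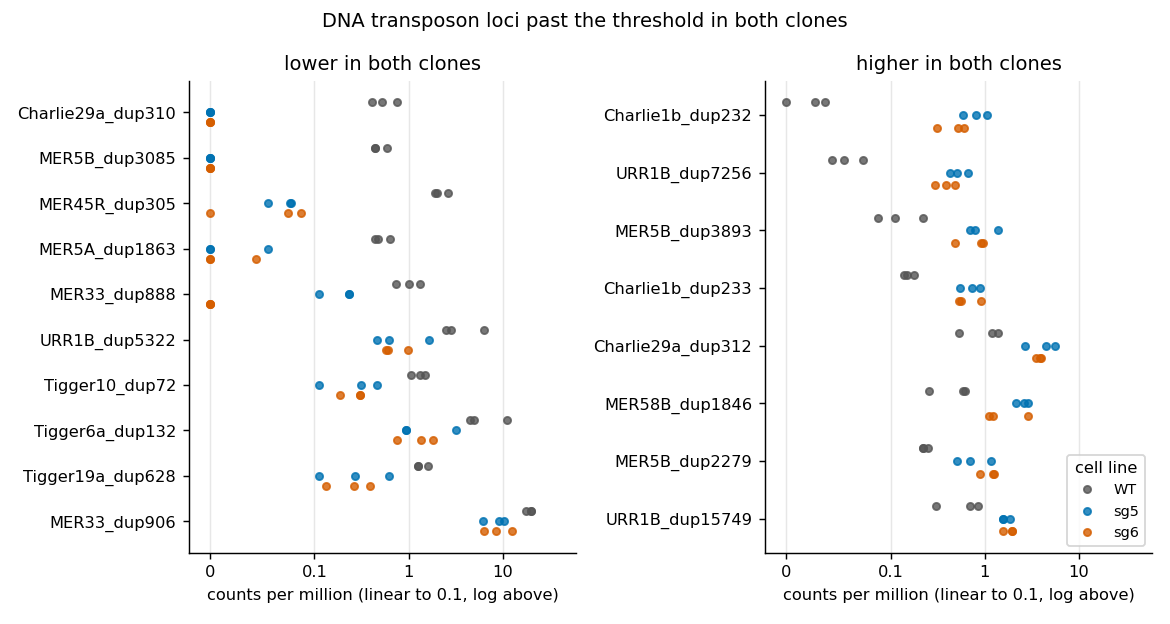
CPM in each of the 9 rRNA-depleted libraries for the 10 DNA loci lower (left) and the 8 higher (right) in both clones. The axis is linear up to 0.1 and logarithmic above, and each dot is a library, coloured by line. For every locus shown, the KO dots lie on 1 side of all WT dots, and WT replicate 3 is the far right dot of URR1B_dup5322 and Tigger6a_dup132.

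To ask whether the clones themselves differed, sg5 was compared with sg6 directly. MMAR1_dup92, a copy of the mouse mariner subfamily MMAR1, was the single DNA locus that was called. Against WT, 12 higher and 11 lower loci had passed in sg5 but not in sg6, and 7 and 8 in sg6 but not in sg5. Of all 56086 features tested, 1023 were higher in sg5, 661 in sg6 and 409 in both, beside 20, 15 and 8 of the 2295 DNA loci. Lower were 1153, 962 and 648 features, beside 21, 18 and 10 DNA loci. The counts in 1 clone alone are thus not read as particular to DNA loci. Between the clones, 0.216% of all features were called higher in sg5 than in sg6 and 0.275% lower. MMAR1_dup92 had 44, 19 and 35 counts in WT, 53, 46 and 45 in sg5 and 5, 3 and 0 in sg6. The sg6 libraries lay below all the others, and sg5 was not called against WT (log2 fold change 0.82, adjusted p = 0.401). Between the clones the log2 fold change was 4.20 ± 0.62 (sg5 over sg6; edgeR quasi-likelihood test, adjusted p = 0.0056), and the log2 fold change of sg6 against WT was −3.38 ± 0.63 (adjusted p = 0.0085). WT and sg5 alone carried MMAR1_dup92 through the count filter, so these p-values do not stand apart from that selection. No DNA locus was called lower in sg5 than in sg6, and DESeq2 called 4. At an unadjusted p under 0.05 in edgeR, 82 of the 2295 DNA loci were lower, beside 2293 of all 56086 features. With the replicate block, 3 DNA loci were called with more RNA in sg5 and 1 with more in sg6. Shares over all features in the DESeq2 and block fits are not given here.

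The next loci in this comparison did not pass. MER33_dup888 (adjusted p = 0.0928) and MER33_dup656 (adjusted p = 0.135) had more counts in sg5 than in sg6, with 6, 2 and 6 against 0 in every library and 22, 15 and 25 against 3, 5 and 8. URR1A_dup10038 had 44, 57 and 79 counts in sg5, 133, 176 and 197 in sg6 and 60, 91 and 88 in WT (adjusted p = 0.0550). RCHARR1_dup5692 had none in sg5, 6, 12 and 10 in sg6 and 8, 6 and 15 in WT (adjusted p = 0.0692). Cheshire_dup511 had 20, 11 and 17 counts in sg6 and none in sg5 or WT (adjusted p = 0.0855), and against WT it was called higher in sg6 (adjusted p = 0.0198). The count filter admitted it through sg6 alone. RCHARR1_dup5692 and Cheshire_dup511 thus had no count in sg5, while URR1A_dup10038 and MER33_dup656 were detected in all 9 libraries.

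Summed by family, DNA transposons were not called in either clone. Of 12 families with enough counts, 0 passed in sg5, in sg6 or between the clones (edgeR quasi-likelihood test, lowest adjusted p 0.250, 0.174 and 0.516), while 18.4%, 12.5% and 2% of all genes and family sums were called in these comparisons. At an unadjusted p under 0.05 there were 0 families in sg5, 1 in sg6 and 0 between the clones, and DESeq2 called 0. The log2 fold changes were below 0 for 11 of 12 families in sg5 and 12 of 12 in sg6, with medians of −0.15 and −0.20, beside 0.01 and 0.00 over all genes and family sums. This sign depended on the scaling: with factors from TE sums alone, 7 of 12 families in sg5 and 5 of 12 in sg6 were above 0, and the median of all features moved by 0.16 and 0.15. Without WT replicate 3, 5 and 4 of the 12 were above 0 and the medians became −0.03 and −0.04. Without WT replicate 1, 1 family was called lower in sg5.

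hAT-Charlie sums were 2170, 2627 and 3281 CPM in WT, 2339, 2206 and 2612 in sg5 and 2278, 2429 and 2562 in sg6, with a log2 fold change of −0.17 ± 0.15 (SE) in sg5 and −0.15 ± 0.15 in sg6. TcMar-Tigger sums were 695, 860 and 1069 CPM in WT, 725, 690 and 805 in sg5 and 710, 754 and 797 in sg6, with −0.24 ± 0.15 and −0.21 ± 0.15. In both families the lines overlapped, and WT replicate 3 was the highest of the 9 libraries. hAT-Tip100 sums were 257, 343 and 338 CPM in WT, 246, 393 and 348 in sg5 and 207, 313 and 320 in sg6. The log2 fold change of hAT-Tip100 was 0.07 ± 0.22 in sg5 and −0.16 ± 0.22 in sg6, and without FordPrefect_dup264 it was −0.13 and −0.17.

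TcMar was the family with an unadjusted p under 0.05 in sg6. It had 8.19, 9.62 and 12.2 CPM in WT, 8.16, 7.39 and 8.93 in sg5 and 7.02, 6.38 and 8.65 in sg6, and the ranges overlapped, with a log2 fold change of −0.29 ± 0.19 in sg5 and −0.45 ± 0.19 in sg6 (edgeR, adjusted p = 0.312 and 0.174). The remaining hAT families had log2 fold changes of −0.30 in sg5 and −0.26 in sg6 (hAT-Blackjack) and of −0.02 and −0.18 (hAT). The remaining Tc1/Mariner families had −0.13 and −0.18 (TcMar-Mariner) and −0.03 and −0.13 (TcMar-Tc2). PiggyBac had −0.35 and −0.34, the copies with no family below the class (named DNA) −0.34 and −0.17, MULE-MuDR −0.05 and −0.56, and MuDR −0.08 and −0.27, with standard errors of 0.12 to 0.33 over all 12 families. None of these differences passed.

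**Figure D4:**
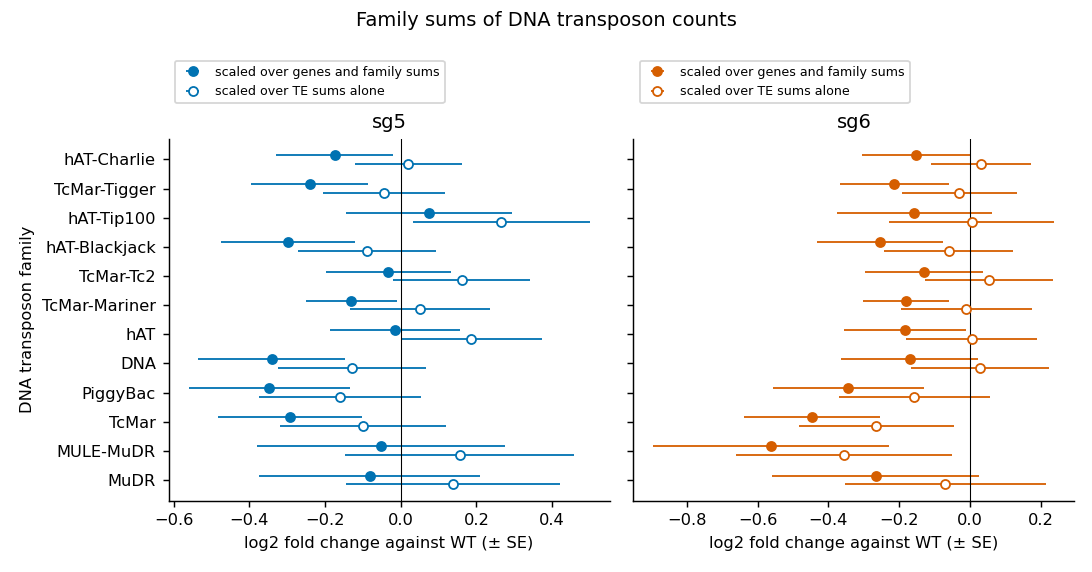
Log2 fold change (± SE) of the 12 DNA transposon families tested, in sg5 (left) and sg6 (right) against WT. Filled circles are scaled over genes and family sums together and open circles over TE sums alone. Filled circles lie left of 0 except for hAT-Tip100 in sg5, and the open circles lie further right and straddle 0.

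At the level of subfamilies, MER45R and Tigger6a were lower in both clones and no subfamily was higher. Of 179 DNA subfamilies tested, 2 were lower in sg5, 3 in sg6 and 2 in both, where 8.18%, 5.79% and 4.12% of all genes and subfamily sums were. None was higher in either clone, with 3 in sg5 and 1 in sg6 at an unadjusted p under 0.05 in edgeR and 0 called by DESeq2, where 8.57% and 5.74% of the table were called higher. The median log2 fold change was −0.17 in sg5 and −0.16 in sg6, beside 0.01 and −0.01 over all genes and subfamily sums. Without WT replicate 3 these medians were −0.01 and 0.01, and with scaling over TE sums alone they were 0.05 and 0.04, beside 0.20 and 0.16. With the replicate block, 6 subfamilies were lower in sg6.

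The MER45R sum followed a single copy. The 52 copies with a count together had 91, 129 and 142 counts in WT, 52, 44 and 62 in sg5 and 50, 56 and 43 in sg6, and the log2 fold change was −0.94 ± 0.19 in sg5 and −1.07 ± 0.19 in sg6 (edgeR, adjusted p = 0.0106 and 0.0071). Without MER45R_dup305 the counts were 48, 58 and 70 in WT, 50, 43 and 60 in sg5 and 50, 54 and 41 in sg6. The remaining copies overlapped between all lines, and their log2 fold change was 0.05 in sg5 and −0.08 in sg6 (adjusted p = 0.878 and 0.853). MER45R did not pass in sg5 without WT replicate 2 (adjusted p = 0.0504), nor in either clone with scaling over TE sums alone (adjusted p = 0.0987 in sg5 and 0.0672 in sg6).

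Tigger6a sums were 392, 539 and 1065 counts in WT, 375, 206 and 325 in sg5 and 273, 307 and 251 in sg6, with a log2 fold change of −0.85 ± 0.22 and −1.005 ± 0.23 (edgeR, adjusted p = 0.0300 and 0.0202). Tigger6a_dup132 gave 22.6% of these counts. Without it the log2 fold change was −0.53 and −0.65 and no longer passed in either clone (adjusted p = 0.0847 and 0.0553). With scaling over TE sums alone the whole Tigger6a sum did not pass in sg5 (adjusted p = 0.0807). In sg5 Tigger6a did not pass without WT replicate 2 or 3, sg5 replicate 2 or 3 or sg6 replicate 3, and in sg6 it did not pass without sg6 replicate 1, 2 or 3 (adjusted p = 0.0515 to 0.101). The subfamily lower in sg6 alone was Ricksha_0, a MuDR-type element with 127 counts in all, at −1.74 ± 0.40 (adjusted p = 0.0221), with −0.83 ± 0.37 in sg5 (adjusted p = 0.156), and without its highest copy it was at −0.78 in sg6. It is named after its value was seen.

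**Figure D5:**
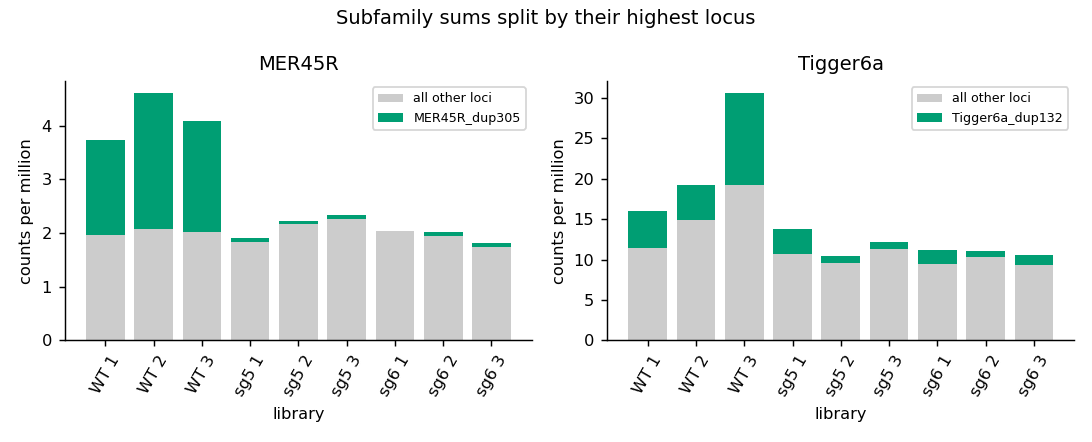
Summed CPM of MER45R (left) and Tigger6a (right) in each of the 9 rRNA-depleted libraries, as bars from 0, with the highest copy in green and all other copies in grey. The grey part of MER45R is level across lines and the green part is present in WT and almost absent in both clones. In Tigger6a the green part is smaller, and WT replicate 3 has the tallest bar.

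The rodent subfamilies and the largest subfamily of each family did not pass. URR1A, with 17621 loci listed, had 334, 391 and 487 CPM in WT, 346, 333 and 381 in sg5 and 348, 370 and 388 in sg6, with a log2 fold change of −0.19 ± 0.14 in sg5 and −0.13 ± 0.14 in sg6. URR1B, with 16889 loci, was at −0.19 and −0.12, RCHARR1 at −0.21 and −0.21, and MMAR1 at −0.15 and −0.19. In all 4 the KO libraries overlapped WT, with adjusted p from 0.371 to 0.651. Of the other largest subfamilies, MER2 (TcMar-Tigger) was at −0.17 and −0.11, MER53 (hAT) at 0.14 and −0.09, MER63D (hAT-Blackjack) at −0.15 and −0.09, and Arthur1 (hAT-Tip100) at −0.44 and −0.43. MER121 (TcMar) was at −0.28 and −0.42, MARNA (TcMar-Mariner) at −0.04 and −0.11, Kanga2_a (TcMar-Tc2) at −0.12 and −0.16, and Looper (PiggyBac) at −0.34 and −0.37. MER135 (DNA) was at −0.37 and −0.36, Ricksha_c (MULE-MuDR) at 0.08 and −0.35, and Ricksha (MuDR) at 0.02 and −0.21. MER132 of TcMar-Pogo had too few counts to test.

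Cellular genes that descend from DNA transposases were read from the same rRNA-depleted fit and from a fit of the 9 polyA libraries, with a log2 fold change beyond 1 required as well. *Pogk* rose strongly in both clones and in both kinds of library. It had 31, 41 and 37 counts in the rRNA-depleted WT libraries, 395, 270 and 324 in sg5 and 403, 506 and 393 in sg6. The lowest KO library had 270 counts and the highest WT library 41. Its level was 1.30 ± 0.246 CPM (SD, n = 3) in WT, 14.3 ± 1.503 in sg5 and 17.8 ± 0.906 in sg6, with a log2 fold change of 3.46 ± 0.21 (SE) and 3.78 ± 0.21 (edgeR quasi-likelihood test, adjusted p = 1.1e-06 and 4.4e-07). In polyA libraries, *Pogk* was at 0.908, 1.09 and 1.31 CPM in WT, 17.3, 22.02 and 20.03 in sg5 and 19.8, 21.5 and 20.4 in sg6. The log2 fold change there was 4.15 ± 0.16 and 4.21 ± 0.16 (adjusted p = 9.0e-07 and 5.5e-07). In the RefSeq annotation of GRCm38, the build also named mm10, *Pogk* lies on chromosome 1 from 166393610 to 166409853 and overlaps *Tada1*, whose log2 fold change was 0.24 and 0.04 in the rRNA-depleted libraries.

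*Pogk* was the 1 gene of this list called in both clones in rRNA-depleted RNA, of 16 tested among 21, where 1.36% of genes tested were higher in both clones and 2.62% lower. The median log2 fold change of the 16 was 0.10 in sg5 and 0.06 in sg6, beside 0.08 and 0.04 over all genes tested, and the other 15 lay between −0.65 and 0.55. In polyA RNA, 19 of the 21 were tested, and 1 was higher and 1 lower in both clones, where 2.18% and 5.48% of genes were. The lower gene was *Rag1*, the lymphocyte recombinase gene, which was rare in all lines with 9, 35 and 43 counts in WT, 26, 16 and 5 in sg5 and 7, 9 and 0 in sg6. Its levels did not overlap in CPM, with a log2 fold change of −2.67 ± 0.70 and −2.70 ± 0.81 (adjusted p = 0.0208 and 0.0327). *Rag1* did not pass in both clones in the fits without WT replicate 2 or 3, sg5 replicate 2 or 3, or any sg6 replicate. In rRNA-depleted RNA it had 1, 3 and 3 counts in WT, 21, 2 and 3 in sg5 and 1, 0 and 1 in sg6. It was not tested there, and its highest library was a KO library. *Cenpb* passed the adjusted p in polyA RNA but not the fold, at 0.50 ± 0.10 in sg5 and 0.66 ± 0.10 in sg6 (adjusted p = 0.0069 and 0.0015), and was at 0.50 ± 0.14 and 0.55 ± 0.14 in rRNA-depleted RNA (adjusted p = 0.0669 and 0.0562).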

How the data were processed

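RNA of C3H/10T1/2 cells was measured in 9 rRNA-depleted and 9 polyA libraries, 3 of each for *Atrx* WT, sg5 and sg6, grouped by the sample labels. The authors aligned the rRNA-depleted reads to mm10 with STAR, allowing up to 100 alignments, and deposited raw counts of genes and TE loci from TElocal. It divides multiply aligned reads among loci, and part of a locus count can therefore stem from similar copies. For the polyA libraries, the authors deposited estimated counts per gene from Salmon 0.8.2 (version as in the submitters' notes) and tximport. The strand setting is not given in the sources used here.

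Counts were tested with edgeR 4.0.16 in R 4.3.3 by the quasi-likelihood test after filterByExpr (minimum count 10, minimum total 15) and TMM scaling, fitting the 9 libraries of each kind together, with Benjamini-Hochberg adjustment over all features tested and a threshold of 0.05. The estimated counts were rounded before testing. Locus counts were also summed by family and by subfamily and tested beside the genes. SE is the log2 fold change divided by the square root of F. CPM uses TMM-scaled library sizes. The DNA share was compared by exact permutation. A group at 0 is given as a bound against 3 counts per library, and ratios with 1 to 3 counts in a group have exact binomial 95% intervals. Both cover counting error only.

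Alternatives were DESeq2 1.42.0, median-of-ratios factors, no filter, a filter of at least 10 counts in every library, a fit of only the 2 lines compared, TMM from genes or from TE rows alone, an added fold threshold for loci and none for genes, sums of tested loci alone or without the highest locus, the uncertain class added, the replicate block, and leaving out each library. Replicate numbers are shared by the labels of the 3 lines. Deviations of same-numbered libraries correlated at r = 0.119 to 0.256 between WT and sg6, 0.132 to 0.391 between sg5 and sg6 and 0.0437 to 0.168 between WT and sg5. Unlike-numbered libraries reached 0.0702, 0.234 and 0.158 in these comparisons, so the ranges overlapped in the last 2. Their means were −0.0921, −0.114 and −0.0583, beside 0.186, 0.231 and 0.118 for same-numbered libraries. What the numbers mark is not stated, and the main tests therefore used no block. No library was a copy of another.

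The named loci are the 6 per direction past the threshold in both clones, without overlap with WT in CPM, with the largest smaller change, the 3 lowest adjusted p per direction between clones and the 5 highest in mean CPM. Every family tested, subfamilies past the threshold in both clones, the rodent subfamilies (RChar1 in that rule is written RCHARR1 in the table) and the largest subfamily of each family are named too. The members, lists and tests were chosen with earlier results of these data known. Each fit was first tested on simulated counts. Gene symbols came from RefSeq for 24045 of 24100 gene IDs. Figures were drawn with matplotlib 3.10.9.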

Additional observations from a re-analysis of the deposited data

Results flagged for a closer look

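MMAR1_dup92 differed between the clones by a direct test, with a log2 fold change of 4.20 for sg5 over sg6, as its sg6 libraries had at most 5 counts and its sg5 libraries at least 45. The count filter admitted it through WT and sg5 alone, so the test does not stand apart from that selection.

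Among the loci of uncertain class DNA?, which the comparisons above leave out, Eulor2B_dup16 was called higher in sg5 than in WT. It had 46, 52 and 77 counts in WT, 89, 89 and 137 in sg5 and 58, 49 and 83 in sg6, with a log2 fold change of 1.17 in sg5 (edgeR quasi-likelihood test, adjusted p = 0.0429) and 0.38 in sg6 (adjusted p = 0.694). The sg5 libraries lay above all WT libraries in CPM and sg6 overlapped WT.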

How the results depend on the processing

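Counts of loci rested on few reads and 3 libraries per line. When 1 library at a time was left out, the DNA loci called ranged from 10 to 26 higher and 3 to 24 lower in sg5, 2 to 20 higher and 3 to 22 lower in sg6, 2 to 9 higher and 1 to 11 lower in both clones, and 1 to 2 higher and 0 to 2 lower in sg5 against sg6. The same fits called 0 to 1 families lower in sg5, 0 to 5 subfamilies lower in sg5, 1 to 4 in sg6 and 0 to 3 in both, and 0 to 1 transposase-derived genes lower in both clones in polyA RNA. With the replicate block, 35 loci were higher in sg5, 13 higher in both clones, 3 higher and 1 lower between clones, and 6 subfamilies were lower in sg6. In the other comparisons the block kept the counts within 1.5 times. What the replicate numbers mark is not stated, so the block stands only as a shared number. DESeq2 called 36 loci higher in sg5, 25 higher in sg6, 14 higher in both and 4 lower between clones. Without a filter, 28 loci were lower in sg6, and 4 were higher and 7 lower between clones. With at least 10 counts in every library, where fewer loci are tested, 7 were higher and 5 lower in sg5, 3 and 5 in sg6, 2 and 3 in both and 0 were higher between clones, and 0 transposase-derived genes were lower in both clones in polyA RNA. TMM from genes alone called 1 locus lower between clones. TMM from TE rows alone left 0 subfamilies lower in sg5, 1 in sg6 and 0 in both, and fitting only the 2 lines compared left 1 in sg5 and 1 in both. Without its highest locus, 0 subfamilies were lower in sg5, 1 in sg6 and 0 in both, and MER45R turned to 0.053 in sg5. Sums of tested loci alone called 1 subfamily higher in sg5 and 1 in sg6, and the uncertain class added 1 higher in sg5. Without the fold threshold, 2 transposase-derived genes were higher in both clones in polyA RNA, the second being *Cenpb*. As a share of TE counts, the sg5 minus WT difference turned to 0.0961 percentage points. Apart from fewer loci or libraries where stated, the cause of these changes was not tested. The counts are not set beside the shares called over all features in the same fits.

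Where neither the reported value nor the alternative passed, signs changed 33 times over the alternatives among the 24 family values and 49 times among the 36 named subfamily values, most often with TMM from TE rows alone (11 and 17) and without WT replicate 3 (8 and 14). *Pogk* kept its direction and call in every alternative run for it. A median of 12 counts per tested locus and library limits what can be called.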

Other observations

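Tigger6a_dup132 and URR1B_dup5322, copies of elements from different families, had counts in nearly the same proportion in WT, both being lower in the 2 clones. The ratio of Tigger6a_dup132 to URR1B_dup5322 was 1.77, 1.81 and 1.73 in the WT libraries, 1.91, 1.55 and 2.0 in sg5 and 1.83, 1.25 and 2.38 in sg6, and WT replicate 3 was the highest library for both. Tigger6a_dup131, which bears the copy number before Tigger6a_dup132, was called lower in sg6 (log2 fold change −2.72, adjusted p = 0.0325) and was at −1.98 in sg5 (adjusted p = 0.0925). These loci were picked after their values were seen, and whether they lie in a single transcript was not tested.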
